A study of Mus musculus with 8 samples.

Results

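The genes of the epidermal growth factor (EGF) receptor system were followed in mouse small intestinal organoids cultured with or without RANKL. The 10 genes were chosen by name, with earlier results of these data known: the receptors Egfr, Erbb2 and Erbb3, the ligands Areg, Ereg, Hbegf, Btc, Tgfa and Epgn, and the receptor inhibitor Lrig1. They are 10 of the 54532 genes listed in the count table, each found by its Ensembl identifier. The data are 3′ mRNA sequencing of 8 libraries, 4 from control organoids and 4 from RANKL-treated organoids. Intestinal organoids are epithelial structures grown from isolated crypts, with no surrounding stroma. RANK, the receptor that RANKL binds, is carried by many intestinal epithelial cells. Both groups carry no other label of genotype, strain, sex or age. The culture methods name a medium with EGF, noggin and R-spondin for mouse organoids, so a ligand of the receptors described here was supplied from outside in the culture. How much RANKL these cultures received, and for how long, is not given in the sources used here. The labels number the libraries but name no separate animals or cultures, so p-values measure the spread between these libraries, which may be technical.

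EGF receptors are membrane tyrosine kinases that pair with each other when a ligand binds. EGFR binds ligands and has an active kinase, ERBB2 has no known ligand of its own and serves as a partner, and ERBB3 binds neuregulins and signals mainly through its partner. The ligands are made as membrane-anchored precursors and released by proteases at the cell surface. Amphiregulin (Areg), transforming growth factor alpha (Tgfa) and epigen (Epgn) act through EGFR, whereas HB-EGF (Hbegf), betacellulin (Btc) and epiregulin (Ereg) can bind both EGFR and ERBB4. In the small intestine EGF signals support crypt stem cells, and the membrane protein LRIG1, which lowers the amount of ERBB receptors, is found on many crypt cells. The comparison of RANKL-treated with control organoids asks which of these genes differ in mRNA level when RANK is stimulated.

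Organoids treated with RANKL had less mRNA of 2 receptors and 2 ligands. Erbb2 fell by 30.5%, Erbb3 by 28.6%, Btc by 42.0% and Hbegf by 47.2% in the fitted fold change, and for each of them all 4 RANKL libraries lay below all 4 control libraries. Egfr, Areg, Tgfa and Lrig1 did not pass the test. Ereg and Epgn had too few counts to be tested. Of the 8 genes tested, 4 were lower and 0 were higher at an adjusted p of 0.05, beside 12.4% of all 9971 genes tested that were lower and 13.6% that were higher, 25.9% in either direction (edgeR's quasi-likelihood test with Benjamini-Hochberg adjustment). Among all genes tested, 11.5% had all 4 RANKL libraries below all 4 control libraries, and 24.6% had groups that did not overlap in either direction. At an unadjusted p of 0.05 the count of higher genes among the 8 was also 0, as it was with DESeq2 and with limma-voom, both of which called 4 lower. The median log2 fold change of the 8 genes was -0.44, against 0.00 over all genes tested. In bulk libraries, fewer cells of a type and less RNA per cell cannot be told apart.

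Depth differed between the libraries, and it sets the precision of the values that follow. Total counts on genes ran from 583663 to 7807298, and control replicate 4 and RANKL replicate 1 were the shallowest of their groups. Depth also differed between the groups, with a median total of 3911808 in control and 1613410 in RANKL libraries. Control replicates 1 to 3 were each deeper than every RANKL library, so depth and treatment are partly confounded. When depth entered the fit, calls over all genes went from 2587 to 1827, and those among the 8 genes from 4 to 3 lower. Levels are given as CPM, a gene's counts scaled to a library total of 1000000, and a single count is worth 0.128 CPM at the greatest depth and 1.71 CPM at the lowest. With both shallow libraries left out, an alternative chosen after seeing the data, the same count of 4 lower and 0 higher was obtained among the 8 genes. All CPM values were scaled by the trimmed mean of M values (TMM). The log2 fold changes are RANKL over control from edgeR with their standard errors (SE). The kit primes on the poly(A) tail, so counts do not scale with transcript length, and levels are compared here between groups and not between genes.

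**Figure D1:**
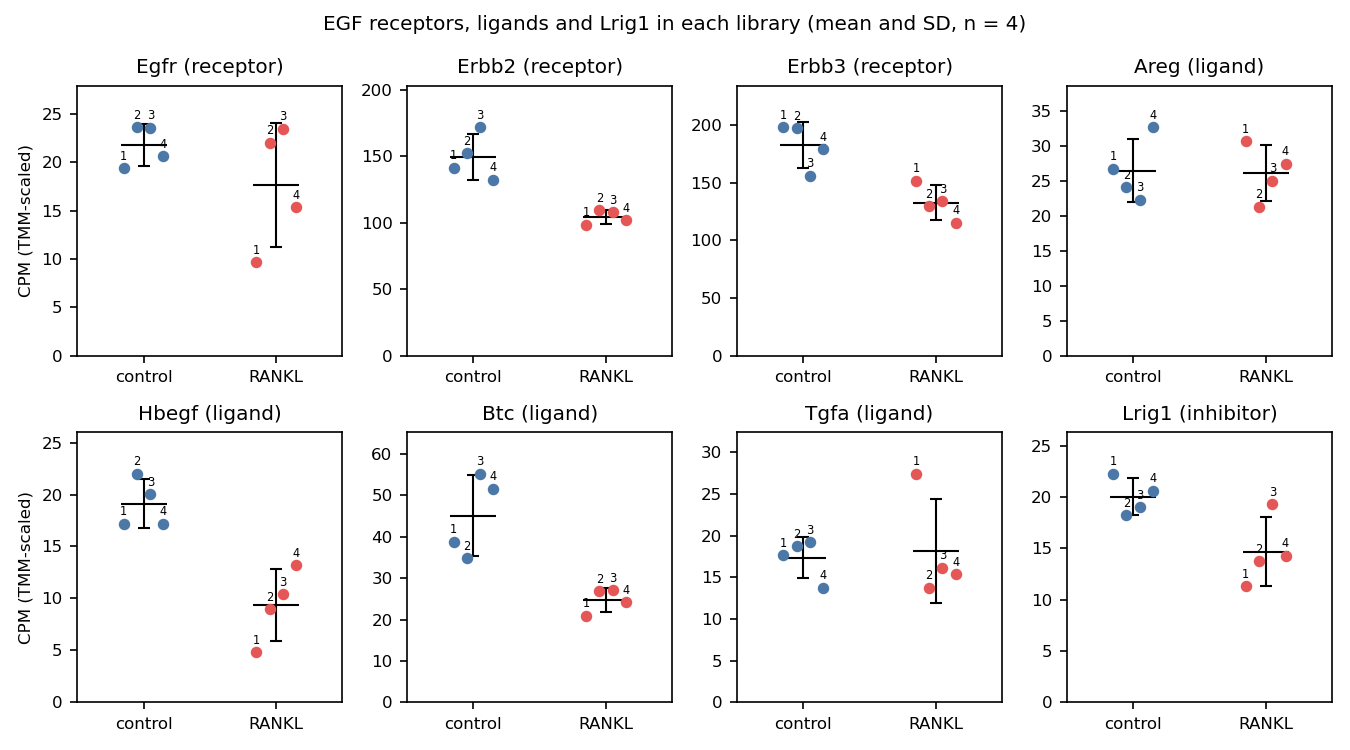
Level of the 8 tested genes in each library, with control libraries in blue and RANKL libraries in red, replicate numbers beside the points, and bars for the mean and SD of 4 libraries (vertical axes in TMM-scaled CPM, starting at 0). The groups of Erbb2, Erbb3, Hbegf and Btc do not overlap, while those of Egfr, Areg, Tgfa and Lrig1 do.

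Among the receptors, Erbb2 (ENSMUSG00000062312, GRCm38 chr11:98412470-98437716, plus strand) encodes the ligandless partner of the family. It stood at 141, 152, 172 and 132 CPM in control replicates 1 to 4 and at 98.5, 109, 108 and 102 CPM in RANKL replicates 1 to 4. The highest RANKL library was below the lowest control library, and the RANKL libraries lay closer together than the controls. The mean went from 149 ± 17.0 CPM (SD, n = 4) to 105 ± 5.10 CPM (SD, n = 4). The log2 fold change was -0.53 with an SE of 0.11 and an adjusted p of 0.00059 by edgeR's quasi-likelihood test.

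Erbb3 (ENSMUSG00000018166, GRCm38 chr10:128567523-128589652, minus strand), the neuregulin receptor, was measured at 198, 197, 156 and 179 CPM in the control libraries. The RANKL libraries gave 152, 129, 134 and 115 CPM. The groups were separated by a narrow gap, between control replicate 3 and RANKL replicate 1. The mean fell from 182 ± 19.7 CPM to 133 ± 15.03 CPM (SD, n = 4 each). For Erbb3 the log2 fold change was -0.49 with an SE of 0.11 (edgeR adjusted p = 0.0016).

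Egfr (ENSMUSG00000020122, GRCm38 chr11:16752203-16918158, plus strand), the receptor of all 6 ligands followed here, was found at 19.4, 23.6, 23.6 and 20.6 CPM in control replicates 1 to 4 and at 9.69, 22.02, 23.5 and 15.4 CPM in RANKL replicates 1 to 4. RANKL replicates 2 and 3 lay within the control range and replicates 1 and 4 below it. The value of RANKL replicate 1 rests on 6 counts, whose exact 95% Poisson interval is 3.56 to 21.1 CPM and covers counting error only. The log2 fold change of -0.21 (SE 0.21, edgeR adjusted p = 0.49) did not pass the test, and its 95% interval ran from -0.64 to 0.21. A fall of the size seen for Erbb2 and Erbb3 lies within that interval, so the data do not show that Egfr differed from them in its response.

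Whether the receptors changed relative to each other was examined within each library, as the log2 ratio of their counts with a pseudocount of 0.5 added to both. The Erbb2/Egfr ratio averaged 2.76 ± 0.12 in control and 2.61 ± 0.48 in RANKL libraries (SD, n = 4 each), a difference of -0.15. The Erbb3/Egfr ratio averaged 3.05 ± 0.26 and 2.95 ± 0.63, a difference of -0.10. The Erbb2/Erbb3 ratio averaged -0.29 ± 0.29 and -0.34 ± 0.20, a difference of -0.05. The 3 receptors together held 354 ± 17.0 CPM in control and 255 ± 14.8 CPM in RANKL libraries (SD, n = 4 each), with the lowest sum, 233 CPM, in RANKL replicate 4. None of the 3 differences exceeded the spread between libraries (two-sided exact permutation tests, p = 0.5429, 0.7714 and 0.8, each 0.8 after Benjamini-Hochberg adjustment over the 3 ratios). RANKL replicate 1 had the highest Erbb2/Egfr and Erbb3/Egfr ratios of all libraries, at 3.24 and 3.86, and is the library with 6 Egfr counts. Without it the differences grew to -0.36 for Erbb2/Egfr (two-sided exact permutation test, unadjusted p = 0.1143) and -0.41 for Erbb3/Egfr (p = 0.0857), so the size of both rests on that library.

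**Figure D2:**
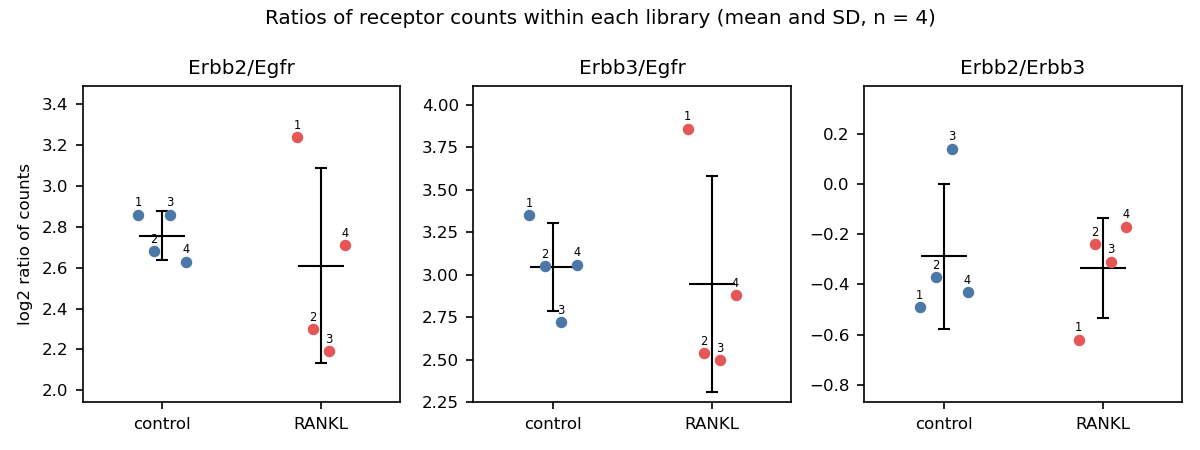
Log2 ratio of receptor counts within each library for the 3 pairs of receptors, with control libraries in blue, RANKL libraries in red and bars for the mean and SD of 4 libraries (vertical axes in log2 units, not starting at 0). The groups overlap for all 3 pairs, and RANKL replicate 1 stands highest for both ratios to Egfr.

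Among the ligands, Hbegf (ENSMUSG00000024486, GRCm38 chr18:36504927-36515805, minus strand) encodes heparin-binding EGF-like growth factor. It was read at 17.2, 22.004, 20.02 and 17.2 CPM in the 4 controls and at 4.84, 8.95, 10.4 and 13.2 CPM after RANKL treatment. Every RANKL library was below every control library, and the RANKL libraries differed among themselves more than the controls did. RANKL replicate 1 held 3 counts, with an exact 95% Poisson interval of 0.999 to 14.1 CPM. The mean fell from 19.1 ± 2.35 to 9.35 ± 3.48 CPM (SD, n = 4 each), and the log2 fold change of -0.92 had an SE of 0.24 (edgeR adjusted p = 0.0037). Its call was lost when sequencing depth (the log2 library total) entered the fit as a covariate (log2 fold change -0.86, edgeR adjusted p = 0.057).

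Btc (ENSMUSG00000082361, GRCm38 chr5:91357261-91402994, minus strand) encodes betacellulin, which like HB-EGF can bind both EGFR and ERBB4. Control libraries gave 38.8, 34.9, 55.2 and 51.6 CPM, and RANKL libraries 20.99, 26.8, 27.1 and 24.2 CPM. Controls 3 and 4 stood above controls 1 and 2, and all 4 RANKL libraries were below each of them. The mean fell from 45.1 ± 9.81 to 24.8 ± 2.86 CPM (SD, n = 4 each). For Btc the log2 fold change was -0.79 with an SE of 0.18 (edgeR adjusted p = 0.0011).

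Areg (ENSMUSG00000029378, GRCm38 chr5:91139599-91148432, plus strand), which encodes amphiregulin, was at 26.7, 24.2, 22.3 and 32.7 CPM in the controls and at 30.7, 21.3, 25.03 and 27.5 CPM after RANKL treatment. The libraries of both groups were interleaved, with means of 26.5 ± 4.52 and 26.1 ± 3.94 CPM (SD, n = 4 each). The log2 fold change was 0.02 (SE 0.18, edgeR adjusted p = 0.96) with a 95% interval from -0.35 to 0.38, and its sign changed between processing alternatives. A change in Areg as large as that fitted for Btc or Hbegf lies outside this interval.

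Tgfa (ENSMUSG00000029999, GRCm38 chr6:86195223-86275719, plus strand) encodes transforming growth factor alpha. Its control libraries stood at 17.7, 18.8, 19.3 and 13.8 CPM and its RANKL libraries at 27.4, 13.8, 16.2 and 15.4 CPM. RANKL replicate 1 was above every other library, on 17 counts, and the other 3 RANKL libraries lay within the control range. The CPM means of 17.4 ± 2.50 and 18.2 ± 6.25 (SD, n = 4 each) and the fitted log2 fold change of -0.11 (SE 0.21, edgeR adjusted p = 0.76) differ in sign. The 95% interval of the fitted value ran from -0.54 to 0.33.

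Ereg (GRCm38 chr5:91074622-91093646, plus strand), which encodes epiregulin, held 1, 0, 0 and 2 counts in the control libraries and 1, 0, 0 and 0 counts in the RANKL libraries. Summed over each group, this is 0.185 CPM in control (exact 95% Poisson interval 0.0382 to 0.541) and 0.174 CPM with RANKL (0.00439 to 0.967). Epgn (GRCm38 chr5:91027464-91035215, plus strand), which encodes epigen, had 0 counts in all 8 libraries. With a floor of 3 counts this allows up to 0.185 CPM over the control group and 0.521 CPM over the RANKL group. The exact 95% Poisson intervals reach further, to 0.228 and 0.640 CPM. Neither gene could be compared at this depth.

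Epgn, Ereg, Areg and Btc lie next to each other on mouse chromosome 5, within 375.5 kb, and are the 4 protein-coding genes of the 7 genes annotated in that span. Along the chromosome, Epgn was not detected, Ereg was near the limit of detection, Areg did not pass the test and Btc fell. Areg and Ereg start 112.1 and 47.2 kb from the start of Epgn, and the annotated end of Btc nearest to Epgn is 329.8 kb from it. Thus 2 genes of 1 cluster that were both measured well above the limit of detection gave different calls. Their log2 fold changes, 0.02 for Areg and -0.79 for Btc, have 95% intervals that do not overlap (-0.35 to 0.38 and -1.15 to -0.42), although the difference itself was not tested.

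The summed level of the 6 ligands was 109 ± 10.2 CPM without and 78.8 ± 6.06 CPM with RANKL (SD, n = 4 each). Hbegf and Btc together held 56.0, 56.9, 75.3 and 68.8 CPM in the control libraries and 25.8, 35.8, 37.5 and 37.3 CPM in the RANKL libraries. Areg and Tgfa together held 44.4, 42.9, 41.6 and 46.4 CPM in control and 58.1, 35.1, 41.2 and 42.8 CPM with RANKL. The ratio of the first sum to the second, compared here between groups alone, ran from 1.26 to 1.81 in the control libraries. With RANKL it was 0.444, 1.02, 0.911 and 0.872, below the controls in all 4 libraries. These pairs were formed after the values were seen and are given as a description with no test.

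The inhibitor Lrig1 (ENSMUSG00000030029, GRCm38 chr6:94604529-94700158, minus strand) was read at 22.3, 18.2, 19.01 and 20.6 CPM in the controls and at 11.3, 13.8, 19.3 and 14.3 CPM after RANKL treatment. RANKL replicates 1, 2 and 4 lay below all controls and replicate 3 lay among them. The log2 fold change of -0.39 (SE 0.21, edgeR adjusted p = 0.17) did not pass the test, with a 95% interval from -0.81 to 0.03. On CPM, the two-sided exact permutation test gave p = 0.0857 for Lrig1 and p = 0.0286, the smallest that 4 against 4 libraries allow, for each of Erbb2, Erbb3, Hbegf and Btc.

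**Figure D3:**
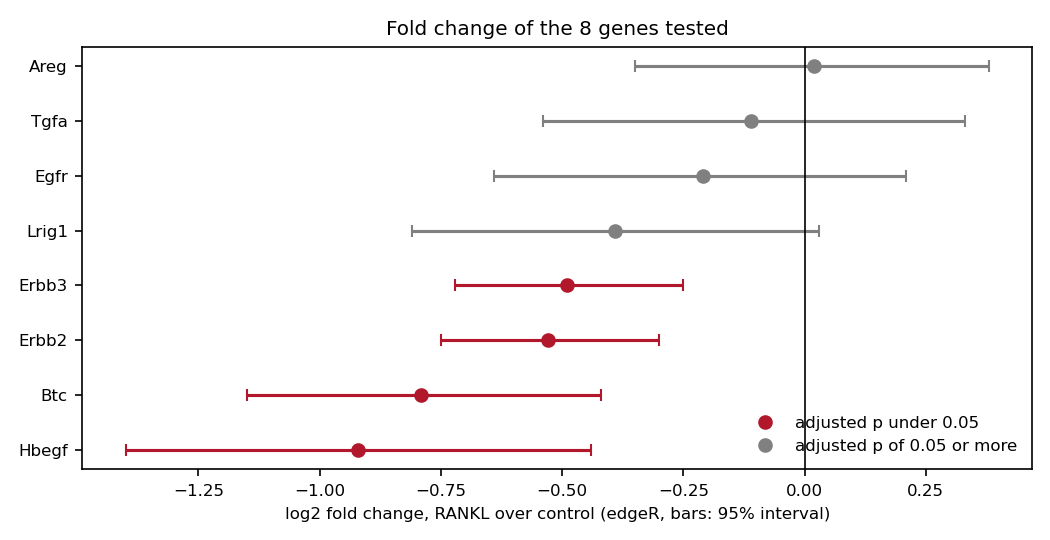
Log2 fold change of the 8 tested genes, RANKL over control, with 95% intervals from edgeR (horizontal axis in log2 units, red for an adjusted p under 0.05, grey otherwise). The intervals of Hbegf, Btc, Erbb2 and Erbb3 lie below 0, and those of Lrig1, Egfr, Tgfa and Areg include it.

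The promoters of Erbb2 and Btc, which fell, and of Areg, which did not change detectably, are shown side by side. They were picked after the calls were seen, and a part of these sequences in the calls was not tested. Sequences are from RefSeq on GRCm38.p6 and run from 250 bases before to 50 bases after the annotated start on the gene's strand. Windows of 7 of the 10 genes were searched: Egfr, Erbb2, Areg, Btc, Tgfa, Epgn and Lrig1. Hbegf and Erbb3, which were both lower with RANKL, and Ereg were not searched. The 3 windows printed are Erbb2 at chr11:98412234-98412533 (plus strand), Btc at chr5:91402945-91403244 (minus strand) and Areg at chr5:91139349-91139648 (plus strand). Capitals mark every match, on either strand, to the 6 motifs searched: the NF-kB consensus, the AP-1 motif TGANTCA, the cyclic AMP response element TGACGTCA, the TCF motif (CTTTGAA or CTTTGAT), the GC box GGGCGG and the TATA motif TATAAA. A match on the other strand appears as its reverse complement.
Erbb2: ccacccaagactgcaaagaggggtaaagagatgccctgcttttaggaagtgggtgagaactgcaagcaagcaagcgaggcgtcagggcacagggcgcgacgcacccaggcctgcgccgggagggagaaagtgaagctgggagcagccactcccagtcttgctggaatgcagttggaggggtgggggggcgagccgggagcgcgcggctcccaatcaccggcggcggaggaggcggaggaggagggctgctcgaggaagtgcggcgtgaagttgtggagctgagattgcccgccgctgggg
Btc: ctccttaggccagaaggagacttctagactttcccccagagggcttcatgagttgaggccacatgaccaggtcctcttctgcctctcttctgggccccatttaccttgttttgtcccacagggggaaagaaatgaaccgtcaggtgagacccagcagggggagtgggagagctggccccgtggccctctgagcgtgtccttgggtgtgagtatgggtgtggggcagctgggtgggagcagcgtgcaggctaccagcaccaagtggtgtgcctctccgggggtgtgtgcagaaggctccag
Areg: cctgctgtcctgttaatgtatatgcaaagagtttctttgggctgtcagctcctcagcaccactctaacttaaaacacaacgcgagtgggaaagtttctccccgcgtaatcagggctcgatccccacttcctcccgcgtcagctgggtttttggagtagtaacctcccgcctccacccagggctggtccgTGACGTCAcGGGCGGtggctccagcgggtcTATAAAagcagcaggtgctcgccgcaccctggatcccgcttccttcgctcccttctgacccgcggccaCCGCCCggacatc
The Erbb2 and Btc windows held no match to any of the 6 motifs. The Areg window held a cyclic AMP response element 61 bases before the start, a GC box 52 bases before it, a TATA motif 31 bases before it and a second GC box, on the other strand, from base 38 after it. Of 32841 promoter windows of 300 bases, 4.51% held the NF-kB consensus, 7.81% the AP-1 motif, 1.79% the cyclic AMP response element, 8.65% the TCF motif, 35.7% a GC box and 13.6% a TATA motif. Of the windows searched but not printed, Egfr held 1 GC box, Tgfa 2 and Lrig1 2, and Epgn held 1 TCF and 1 TATA motif. The end of the Epgn window was not found in an annotated transcript of its gene, while those of the other windows were. The NF-kB consensus and the AP-1 motif matched in none of the 7 windows searched, which says only that these letters are not there. GC content was 66.0% for Erbb2, 60.3% for Btc and 59.3% for Areg, against a median of 52.7% over all windows.

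The rest of the EGF receptor pathway was counted over 5 lists with 88 genes in all, of which 69 were tested, 16 were higher and 9 lower with RANKL. These are 23.2% higher and 13.0% lower, beside 13.6% and 12.4% of all genes tested, and 2 of the higher genes, Rhbdl2 and Rhbdl3, passed the filter on low counts through the RANKL libraries alone. The share lower is near that of all genes and is not a result about the pathway. The first list held the remaining receptor and ligands, Erbb4, Egf and Nrg1 to Nrg4. Only Nrg4, a neuregulin, was tested, at 8.71 ± 1.51 CPM in the controls and 6.48 ± 1.43 CPM after RANKL treatment (SD, n = 4 each) and a log2 fold change of -0.35 (SE 0.29, edgeR adjusted p = 0.42). By edgeR, by DESeq2 and by limma-voom 0 genes of this list were called, and 0 passed at an unadjusted p of 0.05. Erbb4, the other receptor of HB-EGF and betacellulin, had 0 counts in the control libraries and 2 counts in all RANKL libraries together. Egf itself held 32 counts in the control and 13 counts in the RANKL libraries.

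Of the 10 genes of ligand shedding, 6 were tested, and Rhbdf1, Rhbdf2, Rhbdl2 and Rhbdl3 were called higher. The share of 66.7% higher, beside 13.6% of all genes tested, counts Rhbdl2 and Rhbdl3 and is therefore a description. Rhbdl2 and Rhbdl3 reached the low-count cutoff of 5.39 CPM in 0 control libraries and in all 4 RANKL libraries, so they could be tested only because they were high with RANKL, and their values are a description. Of the 4 genes not tested, Adam9 averaged 3.07 CPM in the controls and 1.65 CPM after treatment, Timp3, an inhibitor of metalloproteases, 1.76 and 0.845 CPM, and Adam12 and Rhbdl1 had 0 counts. The metalloproteases that cut EGF ligands did not pass the test: Adam10 was at 46.2 ± 4.12 and 49.0 ± 5.70 CPM (log2 fold change 0.07, edgeR adjusted p = 0.75) and Adam17 at 108 ± 17.2 and 114 ± 4.71 CPM (0.05, adjusted p = 0.81; SD, n = 4 each).

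Rhbdf2 encodes iRhom2, an inactive rhomboid that escorts ADAM17 to the cell surface. It was read at 15.3, 15.6, 11.2 and 6.88 CPM in control and at 24.2, 41.98, 28.7 and 28.01 CPM with RANKL, without overlap, for a log2 fold change of 1.2 (SE 0.21, edgeR adjusted p = 4.7e-05). Rhbdf1, the gene of its relative iRhom1, stood at 9.93, 14.2, 15.2 and 13.8 CPM in control and at 19.4, 20.6, 20.9 and 21.4 CPM with RANKL. Its log2 fold change of 0.69 (SE 0.21, edgeR adjusted p = 0.016) also came with separate groups, but the call was lost without control replicate 1 (log2 fold change 0.50, adjusted p = 0.092), without RANKL replicate 4 (0.67, adjusted p = 0.056), with DESeq2 (adjusted p = 0.052) and with depth as a covariate (0.53, adjusted p = 0.2).

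Rhbdl2 encodes a rhomboid protease of the cell surface. Its control libraries gave 2.42, 3.49, 4.31 and 1.72 CPM and its RANKL libraries 6.46, 13.1, 14.6 and 15.9 CPM, without overlap. Rhbdl3, another member of the rhomboid family, was close to undetected in control organoids, with 2 counts in all control libraries together, and held 49 counts in the RANKL libraries. The ratio of the pooled levels was 68.9, with an exact 95% counting interval from 18.1 to 585, and every RANKL library, from 6.04 to 16.1 CPM, was above every control library. For Rhbdl2 and Rhbdl3 this separation is a description, since both passed the low-count filter through the RANKL libraries alone.

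**Figure D4:**
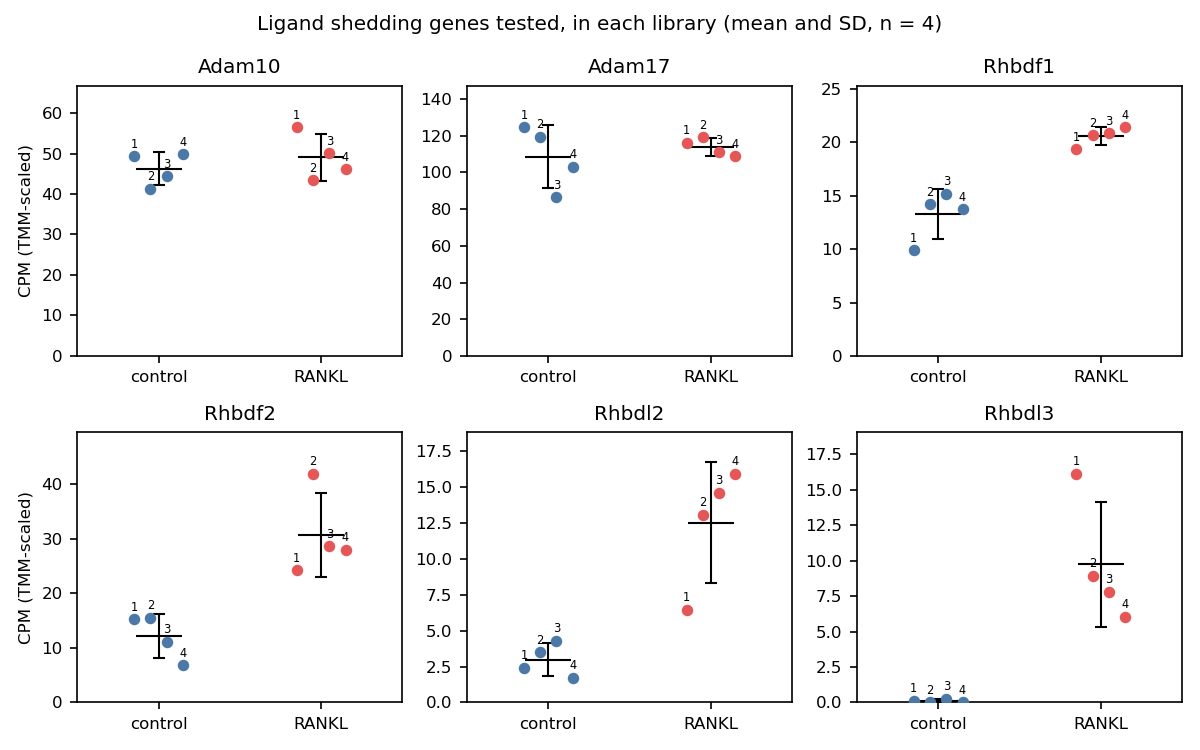
Level of the 6 tested genes of ligand shedding in each library, with control libraries in blue, RANKL libraries in red and bars for the mean and SD of 4 libraries (vertical axes in TMM-scaled CPM, starting at 0). Rhbdf1 and Rhbdf2 are higher in all RANKL libraries, and the groups of Adam10 and Adam17 overlap. Rhbdl2 and Rhbdl3 are also higher, but they passed the low-count filter through the RANKL libraries alone.

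Negative regulators of the receptors, which include ubiquitin ligases, phosphatases and sorting proteins, gave 3 higher and 1 lower gene among 14 tested of 16, with a median log2 fold change of 0.21. That is 28.6% called in either direction, near the 25.9% of all genes tested, and is not a result about the list. Without RANKL replicate 1, 2 or 4 the counts were 2 higher and 0 lower. Cblc, an ubiquitin ligase of activated receptors, rose from 75.8 ± 10.9 to 106 ± 15.3 CPM (log2 fold change 0.50, SE 0.13, edgeR adjusted p = 0.0046), which no longer passed with depth as a covariate (adjusted p = 0.067). The receptor phosphatase gene Ptprk rose from 280 ± 23.3 to 353 ± 23.8 CPM (0.32, SE 0.10, adjusted p = 0.014), not past the threshold without RANKL replicate 1 (0.29, adjusted p = 0.051), without both shallow libraries (0.27, adjusted p = 0.095) or with no filter on low counts (0.29, adjusted p = 0.073). Stam2, which sorts receptors for degradation, went from 18.3 ± 2.61 to 27.3 ± 4.52 CPM (0.57, SE 0.18, adjusted p = 0.019), and did not pass without RANKL replicate 2 (adjusted p = 0.057) or 4 (adjusted p = 0.094), with DESeq2 (adjusted p = 0.054) or with no filter (adjusted p = 0.059). Socs4, whose product can promote breakdown of the receptor, went from 46.6 ± 6.004 to 34.9 ± 4.01 CPM (-0.42, SE 0.15, adjusted p = 0.041), and its call was lost without control replicate 3 (adjusted p = 0.13) or without RANKL replicate 1 (0.079), 2 (0.081) or 4 (0.16). The Socs4 call was also lost with library totals alone (adjusted p = 0.056), DESeq2 (0.098), limma-voom (0.053), depth as a covariate (0.22) and both shallow libraries left out (0.08). Standard deviations are over 4 libraries. Exons of Stam2 overlap those of Gm13548 on the same strand, and Hgs, listed at 0, shares its exons with a second identifier of the same name.

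Among 35 adaptors and proximal transducers, all tested, 8 were higher and 4 lower (22.9% and 11.4%, beside 13.6% and 12.4% of all genes tested), with a median log2 fold change of 0.04. Without control replicate 1 the counts were 6 and 1. Pik3ca, the gene of a catalytic subunit of phosphoinositide 3-kinase, was at 38.7, 37.03, 35.5 and 34.4 CPM in the controls and at 87.2, 102, 91.8 and 85.7 CPM after RANKL treatment (log2 fold change 1.31, SE 0.13, edgeR adjusted p = 1.3e-09). Akt2, a kinase downstream of it, rose from 82.3 ± 11.5 to 122 ± 10.4 CPM (0.55, SE 0.12, adjusted p = 0.00078). Eps8, a substrate of the EGF receptor kinase, fell from 84.7 ± 10.5 to 53.3 ± 9.83 CPM (-0.60, SE 0.14, adjusted p = 0.0012). Vav3 went from 11.5 ± 2.71 to 6.60 ± 0.816 CPM (-0.81, SE 0.29, adjusted p = 0.036; SD, n = 4), but lost its call without control replicate 1 (-0.55, adjusted p = 0.21) and without each RANKL replicate in turn (adjusted p = 0.06, 0.11, 0.065 and 0.078 for replicates 1 to 4). Vav3 also failed the threshold with DESeq2 (adjusted p = 0.12), limma-voom (0.063), depth as a covariate (0.36) and both shallow libraries left out (0.069).

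Of 21 genes of ERK output and feedback, which are transcribed or induced when the pathway is active, 13 were tested, 1 was higher and 4 were lower (7.69% and 30.8%, beside 13.6% and 12.4% of all genes tested), with a median log2 fold change of 0.02. Spry2, a feedback inhibitor, stood at 37.8, 41.3, 38.0 and 25.8 CPM in control and at 24.2, 19.3, 21.9 and 15.9 CPM with RANKL. Dusp5, an ERK phosphatase, stood at 70.2, 77.8, 95.03 and 91.1 CPM and at 59.7, 64.7, 40.7 and 53.8 CPM. Ier3 was the gene that rose, from 51.7 ± 7.48 to 86.8 ± 6.11 CPM (SD, n = 4 each). The tested genes that were not called had edgeR adjusted p from 0.13 to 0.97. Their log2 fold changes were -0.15 for Spred1, 0.02 for Spred2, 0.11 for Dusp6 and 0.19 for Etv4. For Egr1, Fos, Ier2 and Ccnd1 they were -0.25, 0.12, 0.11 and 0.22. Myc was low, from 8.36 to 15.5 CPM in control and from 3.44 to 6.46 CPM with RANKL, and lost its call without control replicate 1 (edgeR adjusted p = 0.059) or without RANKL replicate 2, 3 or 4 (0.12, 0.068 and 0.064), with DESeq2 (0.085) and without both shallow libraries (0.055). Without RANKL replicate 2 the list gave 1 higher and 2 lower genes. Earlier results of these data were known when the list was chosen. They held values of every gene called in it: Ier3, Spry2, Dusp5, Phlda1 and Myc. The shares of this list beside those of all genes are therefore a description.

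**Figure D5:**
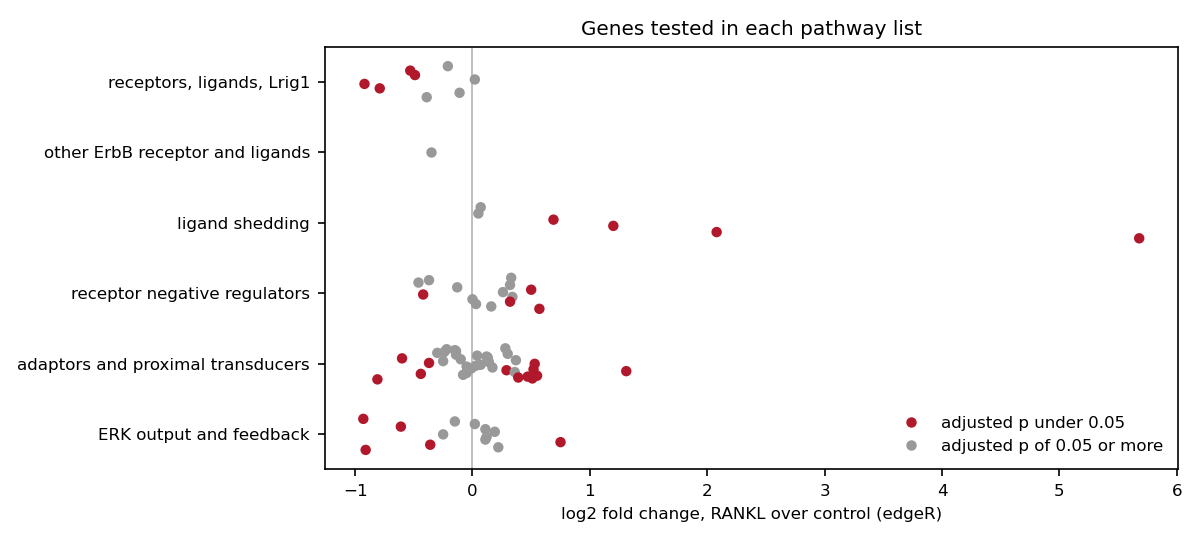
Log2 fold change, RANKL over control, of the tested genes of the receptors, ligands and Lrig1 and of the 5 pathway lists (horizontal axis in log2 units, 1 point per gene, red for an adjusted p under 0.05 by edgeR). The receptors and ligands lie mostly below 0, and the 2 ligand shedding genes farthest above 0, Rhbdl3 and Rhbdl2, passed the low-count filter through the RANKL libraries alone.

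The labelled tissue was checked against markers of its cell types. Summed levels of 6 epithelial markers ran from 5235 to 6102 CPM in control and from 5455 to 5883 CPM with RANKL, while 6 fibroblast markers together stayed at or below 3.44 CPM, 6 immune cell markers at or below 9.69 CPM and 4 endothelial markers at or below 3.44 CPM in every library. Dcn, Cd3e, Cd79a, Itgax, Cdh5 and Kdr had 0 counts throughout. The calls in the marker lists stand beside 13.6% of all genes tested that were higher and 12.4% that were lower, 25.9% in either direction. Among the 6 epithelial markers Krt19 alone was called, as lower (log2 fold change -0.30, edgeR adjusted p = 0.023). Of 6 stem cell markers, 3 were lower (Lgr5, Smoc2 and Axin2) and 1 was higher (Ascl2), and their sum ran from 1288 to 1734 CPM in control and from 1098 to 1317 CPM with RANKL. Of 6 M cell markers, 5 were tested and all of these were higher, but 3 of them (Spib, Tnfaip2 and Ccl20) reached the low-count cutoff in the RANKL libraries alone. Gp2, which marks mature M cells, was at 0 in all libraries and was not tested. The sum of the 6 markers ran from 46.4 to 49.9 CPM in control and from 1761 to 2027 CPM with RANKL. For 7 Paneth cell markers, 1 was higher and 1 lower (28.6% called), with sums of 5053 to 6367 and 4963 to 5945 CPM. For 6 enterocyte markers 1 was higher and 1 lower (33.3% called), and the sums ran from 10532 to 14174 and from 9494 to 10879.9 CPM. The shares called of the Paneth cell and enterocyte lists are near that of all genes and are not a result about these cells. Of 6 goblet cell markers 0 were called by edgeR, DESeq2 or limma-voom and 2 were lower at an unadjusted p of 0.05, with sums of 1952 to 2347 and 2030 to 2183 CPM. Of 6 enteroendocrine markers, 5 were tested (all but Pax4), 2 were higher (Sct and Cck) and 0 lower, with sums of 674 to 796 and 685 to 816 CPM. Of 5 tuft cell markers 1 was tested and 0 were called by any of the 3 tools or at an unadjusted p of 0.05, with sums of 5.16 to 15.3 and 11.01 to 19.4 CPM. The part of these cell type differences in the levels of the receptors and ligands was not tested.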

How the data were processed

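Per the labels and the study's methods, 3′ mRNA libraries (QuantSeq forward kit, single reads of 50 bases) were made from 4 control and 4 RANKL-treated organoid samples. The authors trimmed and filtered the reads, aligned them to GRCm38 with STAR, counted them by strand on Ensembl release 94 genes and deposited raw counts per gene. Genes were named with GENCODE release M21, which matched 54495 of 54532 identifiers. edgeR 4.0.16 (R 4.3.3) was run with TMM factors and the default filter of low genes, and 9971 genes entered its quasi-likelihood test, with Benjamini-Hochberg adjustment and a threshold of 0.05. DESeq2 1.42.0 and limma 3.58.1 were alternatives, as were other scalings and filters, a depth covariate, a replicate block and leaving out each library. Exact permutation tests used 70 assignments of the libraries. On simulated data with 200 changed genes, 191 were tested and edgeR recovered 179 of them with 7 false calls among 9950 genes tested. Tables were made with Python 3.11.15 and pandas 2.3.3. All 10 genes are named, and for each pathway list up to 4 genes with the largest change past the threshold, with further genes of a list as examples. The genes and lists were chosen with earlier results of these data known, so the shares called in them are a description. Intervals and the floor of 3 counts for a count of 0 cover counting error only, since reads copied by PCR are counted.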

Additional observations from a re-analysis of the deposited data

Results flagged for a closer look

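In 66 groups of 4 libraries examined (each named gene, receptor ratio and sum, in each condition), 4 held a library whose distance to its nearest neighbour was a larger share of the group's range than Dixon's 95% critical value. At 1 in 20, 3.3 of 66 would be flagged for independent groups of normally distributed values. The sums and ratios reuse the same genes and Ereg rests on single counts, so 3.3 is only a rough guide. Ereg stood apart in control replicate 4, at 3.44 CPM against 0.127 CPM in the next library, on 2 counts. Ereg also stood apart in RANKL replicate 1, at 1.61 CPM against 0, on 1 count. The sum of Hbegf and Btc was lowest in RANKL replicate 1, at 25.8 CPM against 35.8 CPM in the next RANKL library. The sum of the 3 receptors was lowest in RANKL replicate 4, at 233 CPM against 259.9 CPM in the next. Control replicate 4 and RANKL replicate 1 are the shallowest libraries of their groups.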

How the results depend on the processing

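Over 18 alternatives, 3 or 4 of the receptors, ligands and Lrig1 were lower and 0 higher. With at least 10 counts in every library 4 of them could be tested and 3 were lower. Erbb2, Erbb3 and Btc kept their calls in every fit that tested them, and Hbegf in every one but the fit with the log2 library total as covariate (-0.86, edgeR adjusted p = 0.057). The cause was not tested. The log2 fold change of Areg turned negative without the filter on low counts (-0.03) and with the depth covariate (-0.10). With single libraries left out it ran from -0.05 to 0.10, and was negative without control replicate 2 or 3 or RANKL replicate 1 or 4. In none of these fits did Areg pass the threshold. The differences in the 3 receptor ratios stayed between -0.41 and 0.09 under a pseudocount of 1 and with each library left out. Without RANKL replicate 1 the Erbb2/Egfr and Erbb3/Egfr differences were -0.36 and -0.41, moves larger than the SD of the control libraries. With no filter, the median of all genes moved to -0.11.

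At an adjusted p of 0.01 the calls over all genes went from 2587 to 1636, receptor negative regulators from 4 to 1, adaptors from 12 to 6 and ERK output genes from 5 to 3. Receptor negative regulators gave 2 calls with DESeq2, with no filter, with the depth covariate and without the shallowest library of each group, and 2 to 4 with single libraries left out. Adaptors gave 5 with the depth covariate and 7 to 10 with single libraries left out, and ERK output genes 3 to 6. With at least 10 counts in every library, 2 ligand shedding genes could be tested and 0 were called by edgeR.

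The replicate numbers were also used as a block. Deviations of same-numbered libraries correlated at -0.008, -0.034, 0.104 and 0.035 for replicates 1 to 4, beside -0.138 to 0.088 for libraries of different numbers. The labels do not say whether the numbers pair the samples, and correlations between libraries of this depth cannot exclude it. With the replicate block 2610 genes were called, the 4 lower genes were Erbb2 (-0.52), Erbb3 (-0.45), Hbegf (-1.03) and Btc (-0.83), and of the named pathway genes Socs4 and Vav3 were not called (edgeR adjusted p = 0.056 and 0.086).

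Depth limits the low genes most: a count of 0 allows 5.14 CPM in the shallowest library.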
